A study of Homo sapiens with 27 samples.

Results

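The kinesins are the motor proteins that carry cargo along microtubules or pull, push and shorten the microtubules themselves, and 36 kinesin motor genes were measured here in U937 cells. The members were all genes whose symbol in the array's probe table begins with KIF or KIFC followed by a digit, and each was read by its brightest probe. They had 43 probes, and the 36 genes were drawn from 15207 genes that had a named probe. By role they were divided into 10 mitotic kinesins, 16 transport kinesins and 10 others whose main work lies elsewhere, in cilia for example, or is not settled.

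U937 is an established line with monocytic features that was derived from a human histiocytic lymphoma. The groups were cells pretreated with 10 µM PBD150 for 2 h and then given lipopolysaccharide (LPS) at 4 µg/ml, cells given LPS alone at 4 µg/ml, and untreated cells. LPS is a bacterial cell wall component sensed by Toll-like receptors, and PBD150 is an inhibitor of glutaminyl cyclase, which converts amino-terminal glutamine to pyroglutamate. Culture lasted 48 h in all 3 groups, and total RNA was hybridised in a single Cy5 colour. Each group had 3 biological replicates with 3 technical arrays each, 27 arrays in all, and n = 3 refers to biological replicates throughout. The labels speak of macrophages and name neither a differentiating agent nor a solvent control, and among these samples no group received PBD150 without LPS. Nothing in the labels says that the replicates came from separate days or thawed vials, so p-values measure the spread between these 9 cultures.

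Kinesins hydrolyse ATP to step along microtubules, most of them towards the plus end. During mitosis some slide spindle microtubules apart, some move or hold chromosomes, some shorten microtubule ends and some gather the central spindle on which the cleavage furrow depends. Between divisions other members carry vesicles, organelles and mRNA, using light chains and adaptors to hold their cargo. In macrophages the transport kinesins serve secretion, phagocytosis and the adhesive structures called podosomes, while mRNAs of many mitotic kinesins are made mainly in cells that are preparing to divide.

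Values below are log2 of the spot intensity after quantile normalisation, averaged over the 3 arrays of a culture. A difference of 1 on this scale is a 2-fold difference, and a level can be compared between groups for 1 probe but not between probes. The median intensity of an array lay between 41.5 and 100.3, and 69.0% to 77.8% of probes were above the array's noise limit, set at 3 times the root mean square of those values of the array that lay below 0. Untreated replicate 1 stood apart before normalisation, with log2 medians of 5.37 to 5.55, against 6.12 to 6.23 on the other untreated arrays. Of the 36 kinesin genes 20 were above noise on all 27 arrays, 16 on some of them and 0 on none. A gene was called higher or lower at an adjusted p under 0.05 (limma, Benjamini-Hochberg over 30968 probes). The labelled cell type was checked by 11 myeloid markers, of which 10 were above noise on every array of each group. Their summed intensity per culture was 114240 to 119165 with PBD150 plus LPS, 112981 to 118674 with LPS and 81723 to 84275 in untreated cells. Such a sum is weighted to the brightest markers. In each comparison with untreated cells 3 of the 11 were called higher and 2 lower, and 6 had changes below 0. Their median log2 change was -0.23 with PBD150 plus LPS and -0.14 with LPS. The sum of 7 T or NK lymphocyte markers was 31523 to 32432 with PBD150 plus LPS, 31958 to 39853 with LPS and 16320 to 18547 in untreated cells, led by NKG7. Of 4 B lymphocyte markers the sum was 530.4 to 643.7 with PBD150 plus LPS, 556.6 to 785.6 with LPS and 1086 to 1152 in untreated cells, and PAX5 was above noise on 7 of 27 arrays. Of 6 fibroblast markers the sum was 1061 to 1251 with PBD150 plus LPS, 850.9 to 1231 with LPS and 678.4 to 704.4 in untreated cells, and 2 of the 6, DCN and PDGFRB, were called higher in both comparisons. Of 3 epithelial markers it was 157.9 to 179.1 with PBD150 plus LPS, 134.6 to 181.9 with LPS and 29.9 to 60.7 in untreated cells, and EPCAM was called higher in both. Of 6 neuron markers it was 913.3 to 1523 with PBD150 plus LPS, 907.5 to 1143 with LPS and 1339 to 1465 in untreated cells. The part of these markers in the kinesin results was not tested.

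The first question was which kinesin mRNAs differed between treated and untreated cells. With PBD150 plus LPS, 3 of 36 kinesin genes were higher than in untreated cells and 13 were lower, which is 8.33% and 36.1% of the family. Over all 15207 genes, 15.3% were higher and 17.9% were lower in this comparison. With LPS, 3 of 36 were higher and 12 were lower, or 8.33% and 33.3%, where 13.6% of all genes were higher and 15.4% lower. Both comparisons use the same 3 untreated cultures, so they are not independent of each other. The lower genes were mostly mitotic: 9 of the 10 mitotic kinesins fell in each comparison, against 2 of 16 transport kinesins. The higher genes were all transport kinesins, KIF13B, KIF21B and KIFC2. In RNA from whole cultures, fewer cells making an mRNA and less mRNA per cell cannot be told apart. After median centring 1 kinesin was higher and 13 were lower with PBD150 plus LPS, and without quantile normalisation 6 were higher and 10 lower with LPS.

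**Figure D1:**
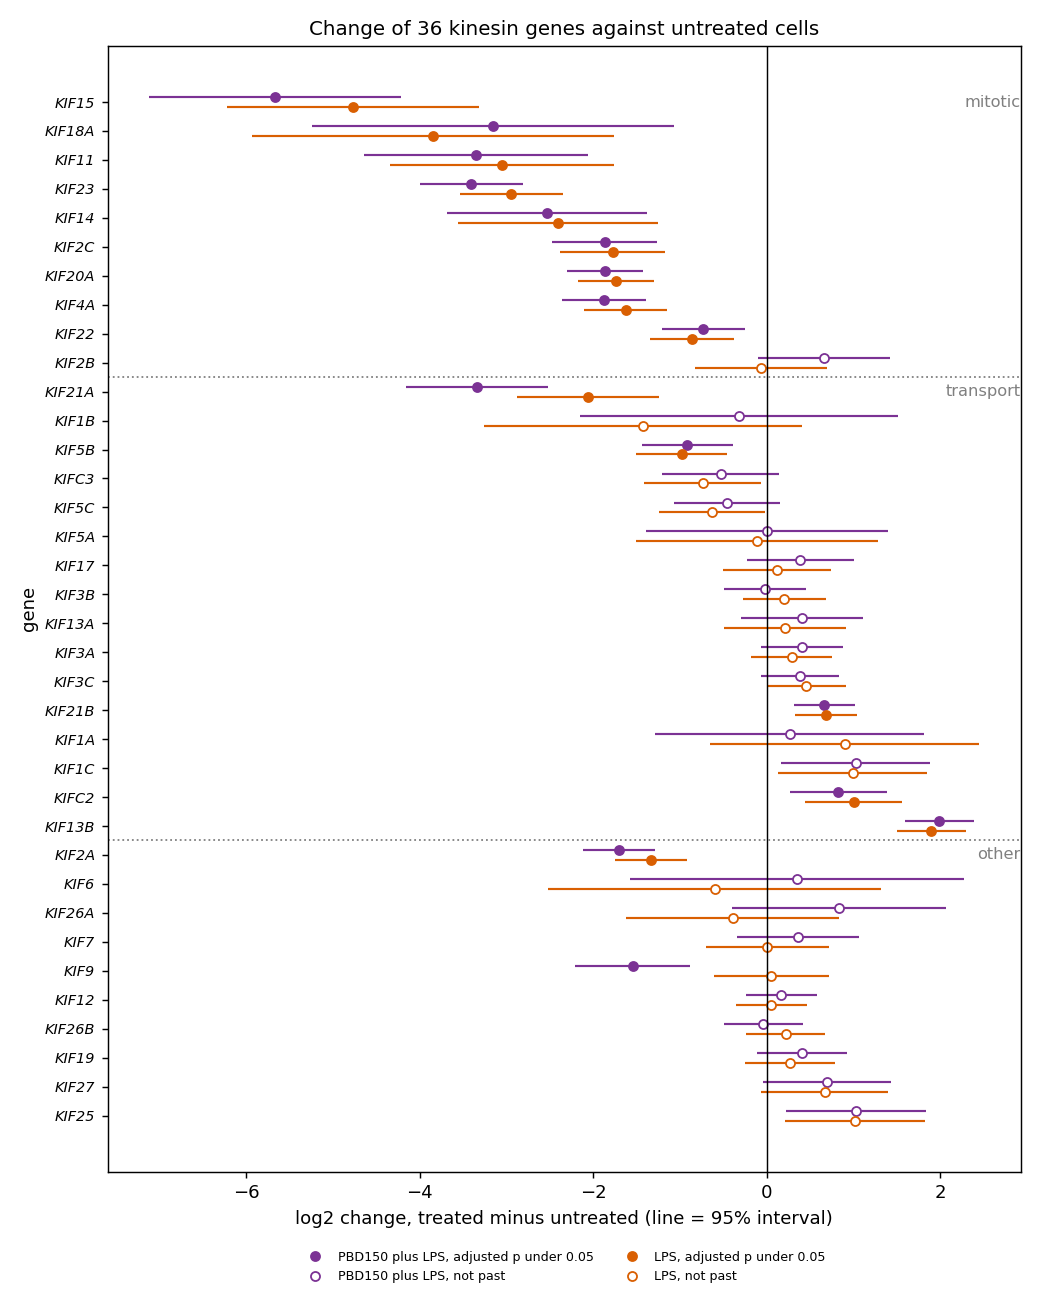
Fitted log2 change of each of the 36 kinesin genes against untreated cells, with PBD150 plus LPS in purple and LPS in orange, and lines for the 95% confidence interval. Filled points passed an adjusted p of 0.05; all mitotic kinesins but KIF2B lie left of 0 as filled points, while most transport and other kinesins are open points around 0.

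Among the mitotic kinesins the median log2 change was -2.21 with PBD150 plus LPS and -2.09 with LPS, where the medians over all genes were 0.057 with PBD150 plus LPS and 0.046 with LPS. KIF14, which was mostly under the noise limit, is one of the middle values of both medians, and without it the other 9 genes had medians of -1.88 with PBD150 plus LPS and -1.77 with LPS. For each of the 9 genes called, all treated cultures lay below all untreated cultures. The calls come from the same values, so this separation adds no separate support. Of all 15207 genes, 4116 lay wholly below the untreated cultures with PBD150 plus LPS and 3754 with LPS. The promoters of 4 of these genes are shown first, since promoters of mitotic genes are known to share short sequence elements. Many genes of mitosis carry a cell cycle homology region near their start, together with CCAAT boxes that bind the factor NF-Y. In resting cells the homology region is bound by the repressive DREAM complex, and in dividing cells by MYBL2 and FOXM1 complexes. The sequences run from 250 bases before to 50 after the start site, 5′ to 3′ on the gene's strand, and were taken from RefSeq on GRCh38.p14. Capitals mark the homology region, searched as TTTGAA. A variant form of it was searched as TTCGAA, which reads the same on both strands. They also mark the NF-Y box, searched as CCAAT. On the opposite strand the first of these motifs is read as TTCAAA. The box is then read as ATTGG, and none of these motifs overlap in the sequences shown. KIF23 lies at chr15:69414099-69414398, KIF20A at chr5:138178862-138179161, KIF4A at chrX:70289854-70290153 and KIF15 at chr3:44761544-44761843, all 4 on the plus strand.
KIF23: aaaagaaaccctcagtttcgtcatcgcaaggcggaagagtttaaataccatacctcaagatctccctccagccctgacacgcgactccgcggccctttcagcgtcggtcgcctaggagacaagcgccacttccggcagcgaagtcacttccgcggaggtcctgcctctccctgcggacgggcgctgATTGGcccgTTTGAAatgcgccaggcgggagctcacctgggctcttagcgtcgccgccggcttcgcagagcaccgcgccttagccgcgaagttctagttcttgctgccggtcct
KIF20A: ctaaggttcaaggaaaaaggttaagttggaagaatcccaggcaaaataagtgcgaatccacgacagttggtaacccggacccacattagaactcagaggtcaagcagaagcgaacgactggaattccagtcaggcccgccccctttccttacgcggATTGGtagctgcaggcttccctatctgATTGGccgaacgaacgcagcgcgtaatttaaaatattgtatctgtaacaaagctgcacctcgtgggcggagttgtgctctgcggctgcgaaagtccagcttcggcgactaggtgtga
KIF4A: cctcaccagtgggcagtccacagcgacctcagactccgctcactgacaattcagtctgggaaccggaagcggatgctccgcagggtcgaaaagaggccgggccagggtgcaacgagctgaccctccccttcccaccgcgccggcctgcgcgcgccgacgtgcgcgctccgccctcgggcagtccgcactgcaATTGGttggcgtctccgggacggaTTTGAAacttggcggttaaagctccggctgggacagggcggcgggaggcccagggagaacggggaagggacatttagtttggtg
KIF15: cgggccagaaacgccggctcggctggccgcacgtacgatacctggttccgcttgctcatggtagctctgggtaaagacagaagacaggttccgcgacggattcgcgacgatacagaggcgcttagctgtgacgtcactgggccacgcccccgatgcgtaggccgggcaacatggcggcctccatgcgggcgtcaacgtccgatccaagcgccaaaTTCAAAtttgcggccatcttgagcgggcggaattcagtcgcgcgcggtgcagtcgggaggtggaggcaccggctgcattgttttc

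In KIF23 the homology element began 55 bases before the start and an ATTGG began 64 bases before it. KIF4A had the same arrangement, with the element 34 bases before the start and an ATTGG at 58. KIF15 carried the homology element alone, 35 bases before the start. KIF20A held a pair of ATTGG at 94 and 67 bases before the start and neither searched form of the homology element. Other forms of it were not searched. Promoter entries were found for 28 of the 36 genes, including all 10 mitotic kinesins. The homology element, in either form and on either strand, was in 7 of 10 mitotic genes, in 1 of 11 transport genes and in 0 of 7 others. It occurred in 16.4% of all 35116 promoter windows of this length and in 72.7% of the 11 windows of mitotic kinesins. CCAAT was in 7 of 10 mitotic, 4 of 11 transport and 2 of 7 other genes, and in 34.6% of all windows. Both were found in 6 of 10 mitotic genes and in 6.38% of all windows. A match describes letters in a window and does not show that a factor binds there. Neither searched element was in the windows of KIF2C, which was called lower, and of KIF2B, which was not called.

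The motors that set up the bipolar spindle are KIF11, which slides antiparallel microtubules apart, and KIF15, which supports the same work once the spindle has formed. KIF11 stood at 5.23, 6.23 and 6.10 with PBD150 plus LPS, at 7.58, 5.66 and 5.23 with LPS, and at 9.36, 9.004 and 9.24 in untreated cells. LPS replicate 1 was the highest treated culture and still lay below every untreated one. KIF11 fell by 3.35 ± 0.57 with PBD150 plus LPS (SE, adjusted p = 0.00299), and with LPS it fell by 3.05 ± 0.57 (adjusted p = 0.0054). Without LPS replicate 1 the change with LPS was -3.76. KIF15 stood at 1.15, 1.75 and 1.65 with PBD150 plus LPS, at 4.15, 1.60 and 1.498 with LPS, and at 6.92, 7.19 and 7.43 in untreated cells. It was above noise on 0 of 9 arrays with PBD150 plus LPS, 2 of 9 with LPS and 9 of 9 in untreated cells. Set against the noise limit it was at least 8.57-fold lower with PBD150 plus LPS (adjusted p = 0.00037). With LPS it fell by 4.77 ± 0.64 (adjusted p = 0.00104), or by 5.63 without LPS replicate 1. With 2 of 9 LPS arrays above noise, both sizes rest mostly on values under the noise limit.

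The chromosome-moving members are KIF22, which binds chromosome arms and pushes them from the poles, KIF18A, which damps chromosome oscillation at the metaphase plate, and the chromokinesin KIF4A. KIF4A stood at 8.998, 8.91 and 8.99 with PBD150 plus LPS, at 9.64, 8.96 and 9.05 with LPS, and at 10.88, 10.80 and 10.85 in untreated cells. No treated culture reached an untreated one, and KIF4A fell by 1.88 ± 0.21 with PBD150 plus LPS (adjusted p = 0.000371) and by 1.63 ± 0.21 with LPS (adjusted p = 0.000918) against untreated cells. A second KIF4A probe was above noise on 0 arrays, and the mean of both probes did not pass (adjusted p = 0.0608 with PBD150 plus LPS and 0.177 with LPS). KIF4B is a nearly identical copy of KIF4A, so what the brighter probe detects may include it. KIF22 had the smallest change of the 9, with 13.72, 13.30 and 13.20 with PBD150 plus LPS, 13.13, 13.13 and 13.57 with LPS, and 14.13, 14.10 and 14.17 in untreated cells. Its levels fell by 0.73 ± 0.21 with PBD150 plus LPS (adjusted p = 0.0346) and 0.86 ± 0.21 with LPS (adjusted p = 0.0199), and all treated cultures lay below the untreated ones. This call was lost without quantile normalisation (adjusted p = 0.18 with PBD150 plus LPS and 0.252 with LPS), and also when any 1 untreated replicate was left out, with adjusted p between 0.0909 and 0.101 for PBD150 plus LPS and between 0.062 and 0.0687 for LPS. It was lost too without PBD150 plus LPS replicate 2 or 3 (adjusted p = 0.102 and 0.0678) and without LPS replicate 2 (adjusted p = 0.0692).

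KIF18A had the widest spread of the family among LPS cultures, with 3.38, 2.04 and 3.51 with PBD150 plus LPS, 4.58, 1.81 and 0.46 with LPS, and 6.50, 5.90 and 6.01 in untreated cells. Every untreated culture was above every treated one, and the 3 LPS cultures spanned 4.11. It was above noise on 1 of 9 arrays with PBD150 plus LPS, 3 of 9 with LPS and 9 of 9 in untreated cells. The fitted changes were -3.16 ± 0.91 with PBD150 plus LPS (adjusted p = 0.0346) and -3.85 ± 0.91 with LPS (adjusted p = 0.0171). Most treated arrays were under the noise limit, so these sizes, and those with a replicate left out, are uncertain. Leaving out LPS replicate 1 moved the LPS change to -5.00, whereas without untreated replicate 1 or without LPS replicate 2 it did not pass (adjusted p = 0.0569 and 0.058). The PBD150 plus LPS change did not pass when any 1 untreated or any 1 PBD150 plus LPS replicate was left out, with adjusted p from 0.0507 to 0.113.

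At the central spindle KIF23 forms the centralspindlin complex with RACGAP1, KIF20A brings Aurora B kinase to the midzone, and KIF14 acts in cytokinesis with citron kinase. KIF23 stood at 5.48, 5.77 and 5.62 with PBD150 plus LPS, at 6.67, 5.80 and 5.77 with LPS, and at 9.09, 9.01 and 8.98 in untreated cells. All treated cultures were more than 2 below all untreated ones on the log2 scale. The fall was 10.6-fold with PBD150 plus LPS (-3.40 ± 0.26, adjusted p = 6.26e-05) and 7.69-fold with LPS (-2.94 ± 0.26, adjusted p = 0.000145), and these were the smallest adjusted p-values of the family. KIF20A stood at 9.72, 9.71 and 9.25 with PBD150 plus LPS, at 9.84, 9.64 and 9.59 with LPS, and at 11.52, 11.40 and 11.37 in untreated cells. It fell by 1.86 ± 0.19 with PBD150 plus LPS (adjusted p = 0.000246) and 1.74 ± 0.19 with LPS (adjusted p = 0.000421), again with all treated cultures below the untreated ones. KIF14 was dim, at 0.43, 2.25 and 1.96 with PBD150 plus LPS, at 1.03, 2.07 and 1.92 with LPS, and at 4.07, 3.63 and 4.54 in untreated cells. It was above noise on 1 of 9 arrays with PBD150 plus LPS, 0 of 9 with LPS and 5 of 9 in untreated cells. It passed with PBD150 plus LPS, at -2.53 (adjusted p = 0.00683), and with LPS (adjusted p = 0.00986), where against the noise limit it was at least 1.05-fold lower.

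KIF2B and KIF2C are kinesin-13 enzymes, which peel tubulin from microtubule ends at the kinetochore. KIF2C stood at 11.20, 11.26 and 10.51 with PBD150 plus LPS, at 11.48, 11.003 and 10.77 with LPS, and at 12.89, 12.83 and 12.84 in untreated cells. It fell by 1.87 ± 0.27 with PBD150 plus LPS (adjusted p = 0.00124) and by 1.77 ± 0.27 with LPS (adjusted p = 0.00187). KIF2B was the exception among the mitotic kinesins, at 5.13, 5.27 and 4.30 with PBD150 plus LPS, at 3.85, 3.93 and 4.74 with LPS, and at 4.26, 4.03 and 4.43 in untreated cells. Its groups overlapped, and the changes of 0.66 with PBD150 plus LPS (adjusted p = 0.184) and -0.07 with LPS (adjusted p = 0.915) did not pass. KIF2B was above noise on 8 of 9 arrays with PBD150 plus LPS, 5 of 9 with LPS and 7 of 9 in untreated cells. Its untreated intensities as deposited, 15.3 to 20.9, lay close to the noise limits of 12.9 to 18.7, so a fall could hardly be seen.

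**Figure D2:**
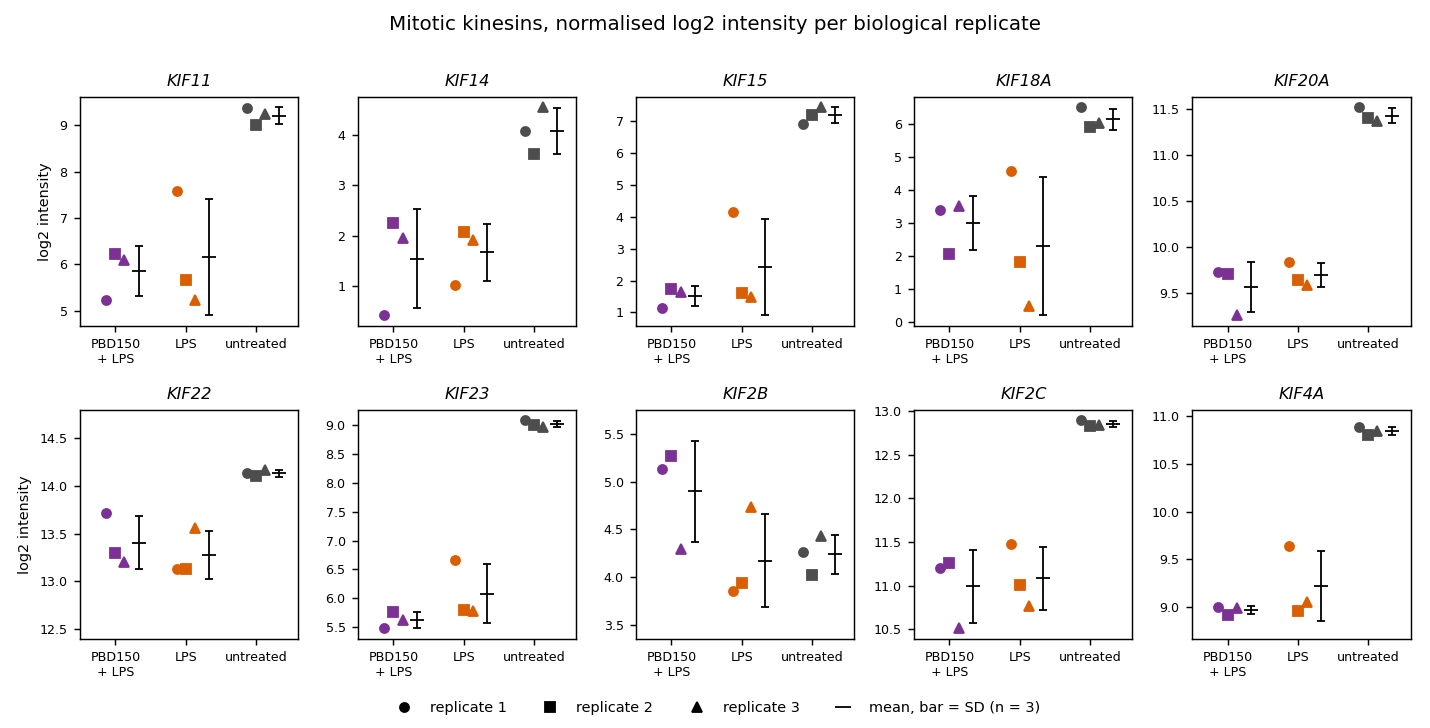
Normalised log2 intensity of the 10 mitotic kinesins in each of the 9 cultures (each gene on its own vertical scale), with PBD150 plus LPS, LPS and untreated cells from left to right and the mean with SD (n = 3) beside the points. In 9 panels the untreated points sit above all 6 treated points, and LPS replicate 1 is the highest LPS culture in 7 of 10.

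Taking the median of the 10 genes in each culture, relative to the untreated mean of each gene, the mitotic kinesins lay at -2.15 ± 0.23 with PBD150 plus LPS, at -1.88 ± 0.28 with LPS and at 0.01 ± 0.04 in untreated cells (SD, n = 3). The spread between cultures was wider after treatment, with a median SD per mitotic gene of 0.37 with PBD150 plus LPS, 0.50 with LPS and 0.13 in untreated cells. LPS replicate 1 had the highest LPS value for 7 of the 10. Without KIF14 these medians were -2.04 ± 0.27 with PBD150 plus LPS, -1.84 ± 0.27 with LPS and 0.0028 ± 0.04 in untreated cells. The median mitotic change minus that of all genes was, with PBD150 plus LPS, -2.26 after quantile normalisation, -2.36 without it and -1.88 with a pseudocount of 16. With LPS it was -2.14 after quantile normalisation, -2.11 without it and -1.77 with that pseudocount.

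The transport kinesins had 3 genes higher, 2 lower and 11 not past the threshold in each comparison. These shares, 18.75% higher and 12.5% lower, were near those of all genes. The all-gene shares were 15.3% and 17.9% with PBD150 plus LPS and 13.6% and 15.4% with LPS. The median log2 change of the transport kinesins was 0.33 with PBD150 plus LPS and 0.21 with LPS. KIF13B, a long-range vesicle motor of the kinesin-3 family, had the largest rise of any kinesin. It stood at 10.18, 10.25 and 9.96 with PBD150 plus LPS, at 9.86, 10.11 and 10.14 with LPS, and at 8.18, 8.05 and 8.18 in untreated cells. The 6 treated cultures were all above the 3 untreated ones, and KIF13B rose by 1.99 ± 0.17 with PBD150 plus LPS (3.97-fold, adjusted p = 0.000122) and by 1.90 ± 0.17 with LPS (3.73-fold, adjusted p = 0.000177).

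KIF21A and KIF21B are paired kinesin-4 motors that also restrain microtubule growth, and they moved in opposite directions. KIF21A stood at 3.46, 3.89 and 3.06 with PBD150 plus LPS, at 5.53, 4.53 and 4.18 with LPS, and at 6.84, 6.84 and 6.75 in untreated cells, so the 3 groups did not overlap. It was above noise on 2 of 9 arrays with PBD150 plus LPS, 8 of 9 with LPS and 9 of 9 in untreated cells. KIF21A fell by 3.34 ± 0.36 with PBD150 plus LPS (adjusted p = 0.000288) and by 2.06 ± 0.36 with LPS (adjusted p = 0.00383). KIF21B stood at 11.41, 11.29 and 11.31 with PBD150 plus LPS, at 11.29, 11.36 and 11.43 with LPS, and at 10.70, 10.70 and 10.63 in untreated cells. It rose by 0.66 ± 0.16 with PBD150 plus LPS (adjusted p = 0.0141) and by 0.69 ± 0.16 with LPS (adjusted p = 0.0138), with all treated cultures above the untreated ones. The KIF21B call was lost after median centring (adjusted p = 0.193 with PBD150 plus LPS and 0.131 with LPS). It was also lost without untreated replicate 2 or 3, with adjusted p of 0.0569 and 0.0609 for PBD150 plus LPS and of 0.0575 and 0.0612 for LPS. A second KIF21B probe was above noise on 1 of 27 arrays, and the mean of both probes did not pass (adjusted p = 0.0637 with PBD150 plus LPS and 0.238 with LPS).

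KIFC2 is a motor whose head lies at the carboxyl end, as in the minus-end-directed kinesins. It stood at 7.56, 7.68 and 7.91 with PBD150 plus LPS, at 8.23, 7.84 and 7.61 with LPS, and at 6.55, 7.21 and 6.91 in untreated cells. All treated cultures were above all untreated ones, and it rose by 0.83 ± 0.25 with PBD150 plus LPS (adjusted p = 0.0386) and by 1.00 ± 0.25 with LPS (adjusted p = 0.0197). The KIFC2 call with LPS was lost without untreated replicate 1 (adjusted p = 0.0742), untreated replicate 3 (0.0599) or LPS replicate 2 (0.0512). With PBD150 plus LPS it was lost after median centring (adjusted p = 0.0667) and when any 1 replicate other than untreated replicate 2 or LPS replicate 1 or 3 was left out, with adjusted p from 0.0583 to 0.129.

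KIF5B is the ubiquitous heavy chain of conventional kinesin, the motor that carries lysosomes and mitochondria outward. It stood at 8.51, 8.92 and 8.80 with PBD150 plus LPS, at 8.25, 8.82 and 8.97 with LPS, and at 9.70, 9.63 and 9.64 in untreated cells. No treated culture reached an untreated one, and KIF5B fell by 0.91 ± 0.23 with PBD150 plus LPS (adjusted p = 0.0191) and by 0.98 ± 0.23 with LPS (adjusted p = 0.0162). The call was lost without quantile normalisation (adjusted p = 0.0513 with PBD150 plus LPS and 0.0732 with LPS) and when any 1 untreated replicate was left out, with adjusted p between 0.0579 and 0.0626 for PBD150 plus LPS and between 0.0526 and 0.0566 for LPS. It was also lost without PBD150 plus LPS replicate 1 (adjusted p = 0.0699). Both lower transport genes are shown by their promoters for comparison with the mitotic genes, with the same capitals. KIF21A lies at chr12:39443071-39443370 and KIF5B at chr10:32056376-32056675, both on the minus strand.
KIF21A: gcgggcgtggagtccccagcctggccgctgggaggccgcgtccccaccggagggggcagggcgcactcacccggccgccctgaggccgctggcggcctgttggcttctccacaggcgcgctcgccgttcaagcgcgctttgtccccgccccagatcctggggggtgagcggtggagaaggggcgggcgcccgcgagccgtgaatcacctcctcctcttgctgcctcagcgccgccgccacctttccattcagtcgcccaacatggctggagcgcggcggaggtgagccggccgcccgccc
KIF5B: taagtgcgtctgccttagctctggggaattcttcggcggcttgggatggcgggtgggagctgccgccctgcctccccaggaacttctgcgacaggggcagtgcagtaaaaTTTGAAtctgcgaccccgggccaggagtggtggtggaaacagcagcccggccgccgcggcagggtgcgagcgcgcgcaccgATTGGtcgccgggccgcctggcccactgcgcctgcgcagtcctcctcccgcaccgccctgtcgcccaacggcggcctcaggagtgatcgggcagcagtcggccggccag

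Of the 11 transport kinesins with a promoter entry, KIF5B was the 1 with a searched form of the homology element. That element began 140 bases before the start, farther upstream than in KIF23, KIF4A or KIF15, and an ATTGG began at 59. KIF21A, whose mRNA fell further than that of KIF5B, had neither searched element in this window. KIF5A, KIFC3 and the 3 higher genes KIF13B, KIF21B and KIFC2 were not searched.

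**Figure D3:**
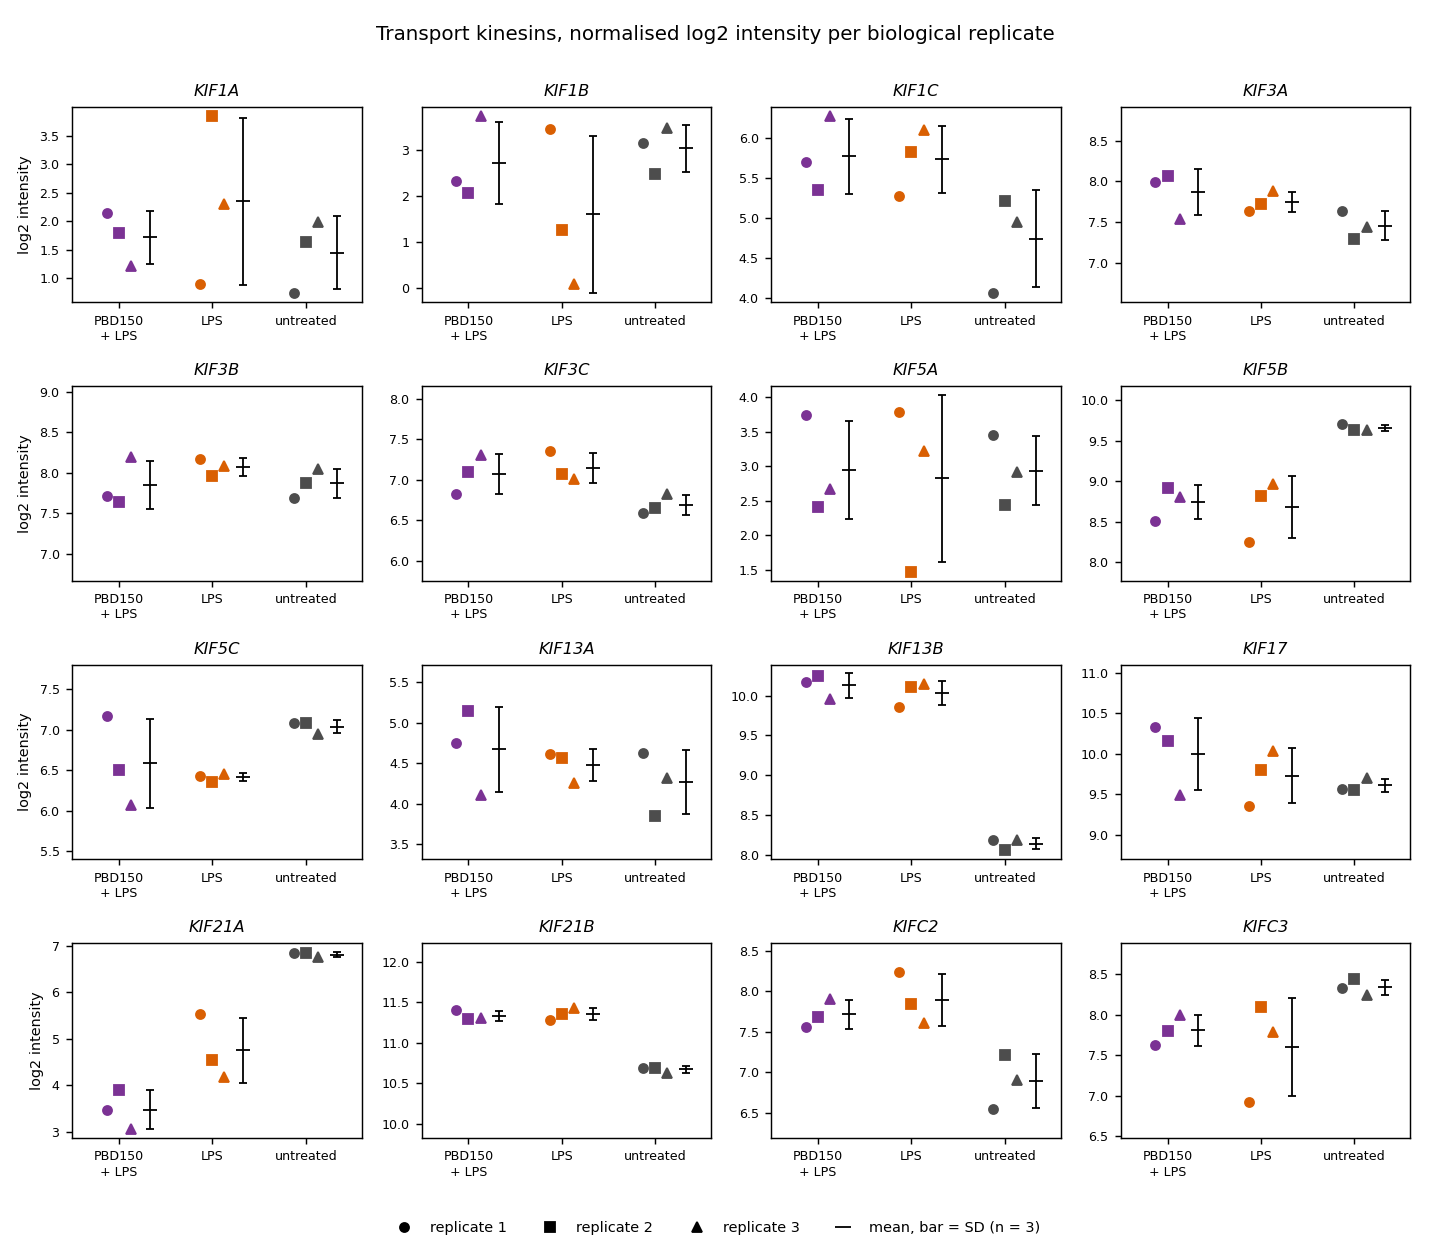
Normalised log2 intensity of the 16 transport kinesins in each of the 9 cultures (each gene on its own vertical scale), with PBD150 plus LPS, LPS and untreated cells from left to right and the mean with SD (n = 3) beside the points. KIF13B, KIF21B and KIFC2 have all treated points above the untreated ones, and KIF5B and KIF21A have them below.

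The remaining 11 transport kinesins did not pass in either comparison. KIF1C, which moves Golgi-derived vesicles and acts at podosomes in macrophages, was nearest to the threshold, at 5.70, 5.35 and 6.27 with PBD150 plus LPS, at 5.28, 5.82 and 6.10 with LPS, and at 4.07, 5.22 and 4.95 in untreated cells. Its treated cultures were all above its untreated ones, with changes of 1.03 ± 0.38 with PBD150 plus LPS (adjusted p = 0.0779) and 0.99 ± 0.38 with LPS (adjusted p = 0.0983). The kinesin-2 subunits, which drive transport into cilia and in the cytoplasm, had small changes: KIF3A 0.41 with PBD150 plus LPS and 0.29 with LPS, KIF3B -0.02 with PBD150 plus LPS and 0.20 with LPS, and KIF3C 0.39 with PBD150 plus LPS and 0.46 with LPS. KIFC3, a minus-end motor, had lower values in all treated cultures, with changes of -0.53 with PBD150 plus LPS (adjusted p = 0.224) and -0.74 with LPS (adjusted p = 0.114). KIF5C, a conventional kinesin best known from neurons, had changes of -0.45 with PBD150 plus LPS (adjusted p = 0.252) and -0.63 with LPS (adjusted p = 0.137). Its second probe, above noise on 6 of 27 arrays, had the opposite sign with LPS, at 1.53 (adjusted p = 0.0687). KIF17 and KIF13A had changes of 0.39 and 0.40 with PBD150 plus LPS and of 0.12 and 0.21 with LPS. The transport kinesins KIF1A, KIF1B and KIF5A were above noise on 2, 3 and 5 of the 27 arrays, and their levels could not be followed at this brightness.

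Among the other 10 kinesins, KIF2A passed in both comparisons and KIF9 in PBD150 plus LPS against untreated, and the rest did not pass. KIF2A is a kinesin-13 enzyme that shortens microtubules at spindle poles and in growing neurites. It stood at 9.72, 9.35 and 9.72 with PBD150 plus LPS, at 10.10, 9.90 and 9.90 with LPS, and at 11.38, 11.32 and 11.20 in untreated cells. The 3 groups did not overlap, and KIF2A fell by 1.70 ± 0.18 with PBD150 plus LPS (adjusted p = 0.000279) and by 1.33 ± 0.18 with LPS (adjusted p = 0.00114). A second KIF2A probe also passed, at -2.85 with PBD150 plus LPS (adjusted p = 0.003) and -2.06 with LPS (adjusted p = 0.0162).

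KIF9 is a motor of cilia and flagella that has also been tied to podosomes in human macrophages. It was dim in all groups, at 1.83, 1.97 and 2.43 with PBD150 plus LPS, at 3.93, 4.04 and 3.07 with LPS, and at 3.75, 3.51 and 3.61 in untreated cells. It was above noise on 0 of 9 arrays with PBD150 plus LPS, 3 of 9 with LPS and 4 of 9 in untreated cells. It passed as lower with PBD150 plus LPS (adjusted p = 0.0051), but the untreated mean did not exceed the noise limit of the PBD150 plus LPS arrays, so no size is given for that difference. The change with LPS was 0.06 ± 0.29 (adjusted p = 0.919).

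Of the 8 that did not pass, KIF25 had the largest changes, 1.03 ± 0.35 with PBD150 plus LPS (adjusted p = 0.0643) and 1.02 ± 0.35 with LPS (adjusted p = 0.0737). With PBD150 plus LPS the changes were 0.36 for KIF7, the ciliary regulator of Hedgehog signalling, 0.17 for KIF12, 0.41 for KIF19 and -0.04 for KIF26B. With LPS they were 0.01 for KIF7, 0.06 for KIF12, 0.27 for KIF19 and 0.22 for KIF26B. KIF6 and KIF26A were each above noise on 1 of 27 arrays. KIF27, a relative of KIF7, was above noise on 9 of 27 arrays and its probes disagreed. The brighter had a change of 0.70 with PBD150 plus LPS (adjusted p = 0.15), and the dimmer, above noise on 4 arrays, one of -1.17 with PBD150 plus LPS (adjusted p = 0.0132).

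The second question was whether PBD150 altered what LPS did. In PBD150 plus LPS against LPS, limma called 0 of 36 kinesin genes, where 0% of all 15207 genes were called in either direction. At an unadjusted p under 0.05 there were 2 kinesin genes, KIF9 and KIF21A, and 678 of all genes. The median change was 0.03 over the family, -0.13 over the mitotic kinesins with 7 of 10 below 0, and 0.08 over the transport kinesins with 10 of 16 above 0. The 95% interval lay within a 2-fold change in either direction for 22 of the 36 genes and within a 4-fold change for 28 of 36. For the remaining genes the interval included larger differences. All these intervals use a spread per probe that is shared with the untreated cultures, which varied less. The median SD over the kinesins was 0.32 with PBD150 plus LPS, 0.38 with LPS and 0.18 in untreated cells. Intervals of genes with a wide spread after treatment may therefore be too narrow.

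KIF9 had the smallest p of the family (limma adjusted p = 0.434), and all 3 PBD150 plus LPS cultures lay below all 3 LPS cultures. This probe was above noise on 0 of 9 arrays with PBD150 plus LPS and on 3 of 9 with LPS. KIF21A was lower in all 3 PBD150 plus LPS cultures than in any LPS culture, by 1.28 ± 0.36 on the log2 scale (95% interval -2.09 to -0.46, limma adjusted p = 0.884). With 2 of 9 PBD150 plus LPS arrays above noise, and 8 of 9 with LPS, that size and interval are uncertain. The difference of KIF2A, -0.37 ± 0.18 (adjusted p = 0.906), and that of KIF23, -0.46 ± 0.26 (limma adjusted p = 0.906), were also without overlap of the cultures. In this comparison 4 of 36 kinesins lay wholly below and 0 wholly above. Over all 15207 genes, 679 lay wholly below and 498 wholly above. KIF2B had a difference of 0.73 (95% interval -0.03 to 1.49, adjusted p = 0.906) and the dim KIF26A did not pass (adjusted p = 0.906). None of these passed the adjustment over all probes. For KIF13B the interval was -0.31 to 0.49 and for KIF20A -0.57 to 0.31, so differences of 2-fold lay outside both.

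**Figure D4:**
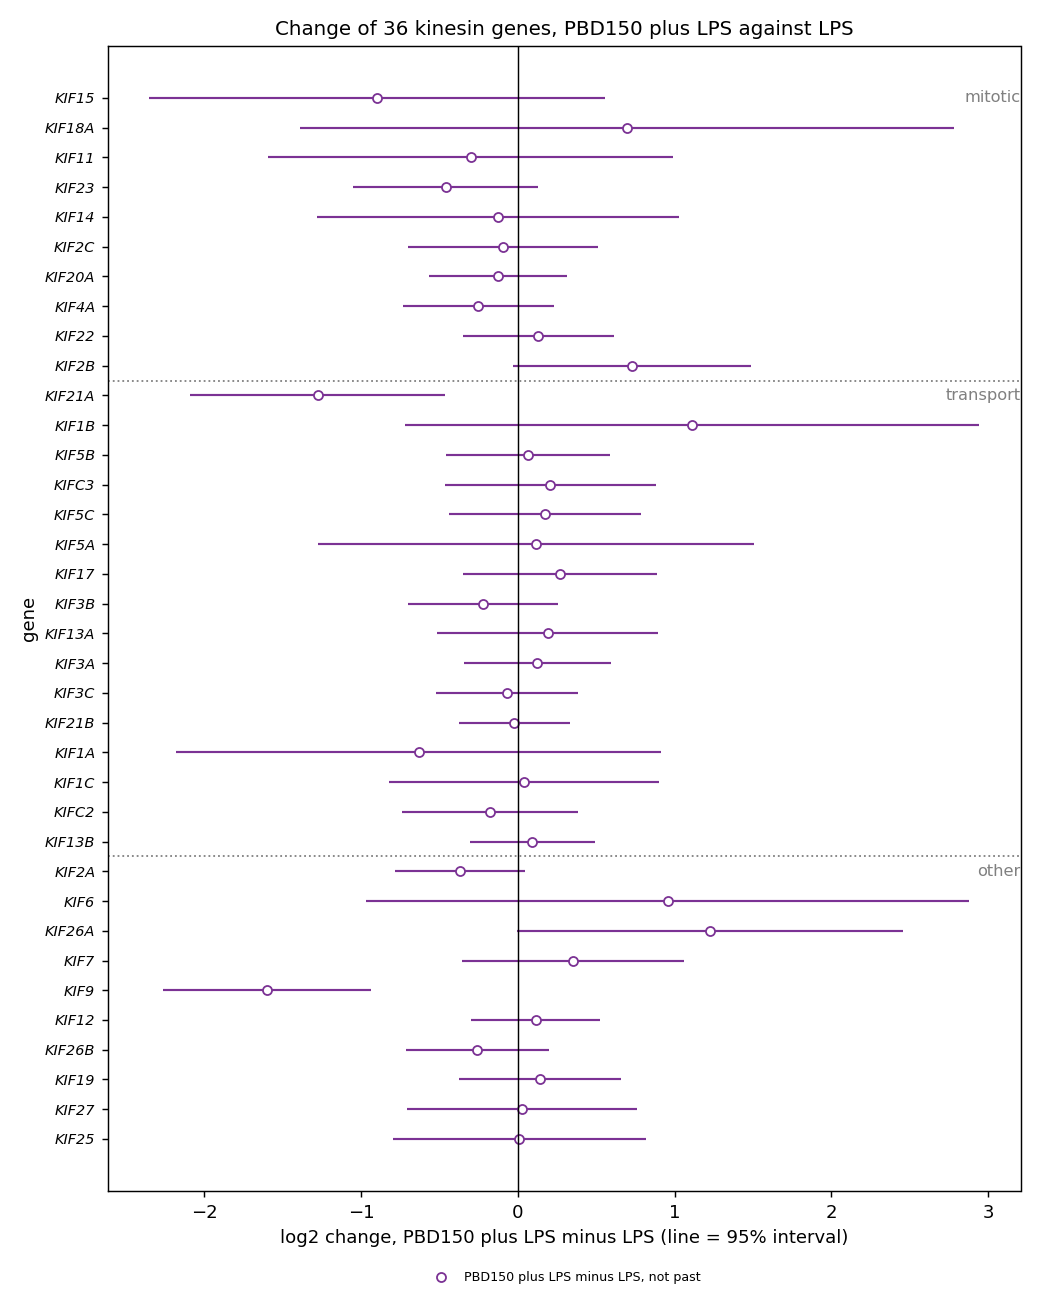
Fitted log2 change of each of the 36 kinesin genes in PBD150 plus LPS against LPS, with lines for the 95% confidence interval; open points did not pass an adjusted p of 0.05. All 36 points are open, and the intervals of KIF9 and KIF21A alone exclude 0.

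The proteins that work with the motors were read from lists of known partners. Of 24 spindle and midzone partners of the mitotic kinesins, 19 fell with PBD150 plus LPS and 18 with LPS, and 0 rose in either comparison (limma, and every gene at an unadjusted p under 0.05 was lower). The lower share was 79.2% with PBD150 plus LPS and 75% with LPS, where 17.9% and 15.4% of all genes were lower. The list includes CENPE, itself a kinesin, and the kinesin-2 adaptor KIFAP3. The median change of the list was -1.88 with PBD150 plus LPS and -1.74 with LPS. PLK1, the kinase that regulates KIF20A and KIF23, had changes of -2.79 with PBD150 plus LPS and -2.73 with LPS. RACGAP1, the partner of KIF23 in centralspindlin, stood at 7.67, 8.07 and 7.99 with PBD150 plus LPS, at 8.03, 8.13 and 7.77 with LPS, and at 10.23, 10.19 and 10.23 in untreated cells. It fell by 2.31 ± 0.19 with PBD150 plus LPS (adjusted p = 8.22e-05) and by 2.24 ± 0.19 with LPS (adjusted p = 0.000115), less than the changes of -3.40 with PBD150 plus LPS and -2.94 with LPS seen for KIF23. AURKB and BIRC5, members of the chromosomal passenger complex that KIF20A carries, had changes of -2.08 and -2.25 with PBD150 plus LPS and of -2.10 and -2.39 with LPS, all past the threshold. CENPE, a kinetochore kinesin that lies outside the KIF symbols, stood at 11.18, 11.14 and 10.31 with PBD150 plus LPS, at 11.18, 10.88 and 10.68 with LPS, and at 13.001, 12.94 and 12.91 in untreated cells. It fell by 2.07 ± 0.27 with PBD150 plus LPS (adjusted p = 0.000733) and by 2.04 ± 0.27 with LPS (adjusted p = 0.000945).

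Of 21 regulators of mitotic gene transcription, 12 fell and 2 rose with PBD150 plus LPS, and 11 fell and 2 rose with LPS. The lower share was 57.1% with PBD150 plus LPS and 52.4% with LPS, where 17.9% and 15.4% of all genes were lower. MYBL2, which activates genes through the homology region in dividing cells, stood at 9.18, 9.02 and 8.47 with PBD150 plus LPS, at 8.48, 8.995 and 9.14 with LPS, and at 11.32, 11.05 and 11.14 in untreated cells. It fell by 2.28 ± 0.26 with PBD150 plus LPS (adjusted p = 0.000376) and by 2.30 ± 0.26 with LPS (adjusted p = 0.000429). TFDP1, the partner of E2F factors, had changes of -2.44 with PBD150 plus LPS and -2.14 with LPS, both past the threshold. E2F4, an E2F of the DREAM complex, had changes of -1.59 with PBD150 plus LPS and -1.87 with LPS, also past it. RBL1, LIN9, LIN52 and RBBP4 of the same complex fell too in both comparisons. RBL2, its other pocket protein, rose instead, by 1.03 ± 0.18 with PBD150 plus LPS (adjusted p = 0.00326) and by 1.02 ± 0.18 with LPS (adjusted p = 0.00374). LIN37 had 0.27 with PBD150 plus LPS and 0.14 with LPS, LIN54 had 0.31 with PBD150 plus LPS and 0.37 with LPS, and TFDP2 had -0.47 with PBD150 plus LPS and -0.39 with LPS, none past the threshold. These members of the complex, other than E2F4 and TFDP1, were named after their values were seen. CDKN1A, the cyclin-dependent kinase inhibitor p21, rose by 5.39 ± 0.32 with PBD150 plus LPS (adjusted p = 2.2e-05) and by 5.06 ± 0.32 with LPS (adjusted p = 3.46e-05).

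Of 18 kinesin light chains and cargo adaptors, 3 rose and 2 fell with PBD150 plus LPS, while 3 rose and 0 fell with LPS (limma, with 5 at an unadjusted p under 0.05). The higher share of 16.7% in each comparison was near that of all genes, 15.3% with PBD150 plus LPS and 13.6% with LPS. KLC1, a light chain of conventional kinesin, rose by 0.84 ± 0.23 with PBD150 plus LPS (adjusted p = 0.0276) and by 0.76 ± 0.23 with LPS (adjusted p = 0.0454), in the opposite direction to the heavy chain KIF5B. MAPK8IP3 and MAPK8IP2, JNK scaffolds that link cargo to kinesin, rose by 1.54 and 1.71 with PBD150 plus LPS and by 1.35 and 1.48 with LPS. The 2 that fell with PBD150 plus LPS, named after their values were seen, were KIFAP3, the adaptor of kinesin-2, at -1.52 (adjusted p = 0.0155), and the light chain KLC2 at -1.11 (adjusted p = 0.03). In LPS against untreated KIFAP3 had -0.71 (adjusted p = 0.207), and KLC2 -0.76 (adjusted p = 0.12). KIFAP3 was above noise on 4 of 9 arrays with PBD150 plus LPS, 8 of 9 with LPS and 8 of 9 in untreated cells. The size of its fall with PBD150 plus LPS is therefore uncertain. KIFAP3 is counted in the spindle list as well. With untreated replicate 3 left out 0 of 18 were lower with PBD150 plus LPS, and 1 of 18 without untreated replicate 1 or 2 or PBD150 plus LPS replicate 1 or 2. With LPS 1 of 18 was lower without LPS replicate 1 or without PBD150 plus LPS replicate 3.

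The opposing minus-end motor was also read. Of 22 genes of cytoplasmic dynein and its activator dynactin, 4 rose and 2 fell in each comparison. These are 18.2% higher and 9.09% lower, beside all-gene shares of 15.3% and 17.9% with PBD150 plus LPS and of 13.6% and 15.4% with LPS. DYNLT1, a dynein light chain, rose by 1.82 with PBD150 plus LPS and 1.85 with LPS, and NDEL1, a dynein regulator, rose by 1.02 with PBD150 plus LPS and 1.14 with LPS. DCTN5, a dynactin subunit, rose by 0.67 with PBD150 plus LPS and 0.75 with LPS. DYNC1LI1, a light intermediate chain, had a change of -0.999 with PBD150 plus LPS and of -0.71 with LPS, both past the threshold. The fourth to rise and the second to fall, named after their values were seen, were the light chains DYNLRB2, at least 1.29-fold higher with PBD150 plus LPS and at least 1.19-fold higher with LPS against a noise limit that no untreated array passed, and DYNLL1, at -1.98 with PBD150 plus LPS and -1.49 with LPS. With LPS 0 of 22 were lower when untreated replicate 2 or 3 was left out and 1 without untreated replicate 1, LPS replicate 2 or 3 or PBD150 plus LPS replicate 1, and with PBD150 plus LPS 2 were higher without untreated replicate 1 or 2. In PBD150 plus LPS against LPS 0 genes of these 4 lists passed (limma), and 0 had an unadjusted p under 0.05.

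**Figure D5:**
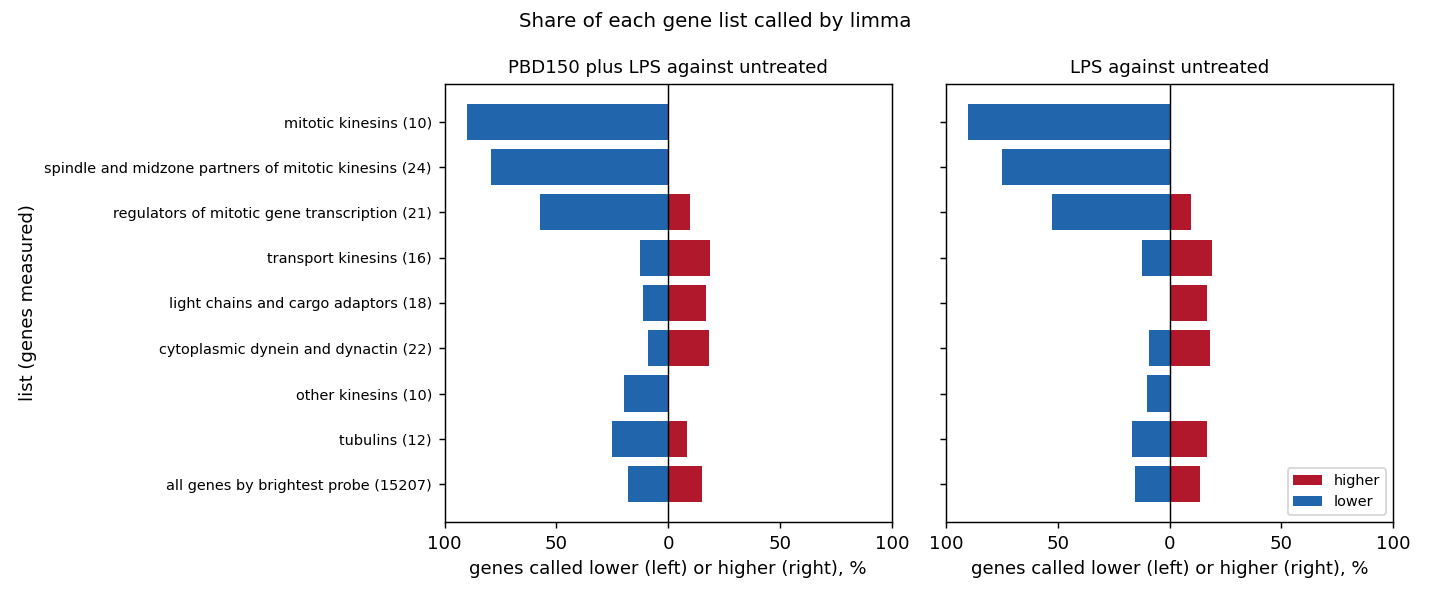
Percentage of the genes of each list called higher (right, red) or lower (left, blue) by limma, for PBD150 plus LPS against untreated on the left and LPS against untreated on the right, with the number of genes measured in brackets. The mitotic kinesins have 90% called lower and their spindle partners 79.2% and 75%, whereas transport kinesins, adaptors and dynein genes have under 20% called in either direction.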

How the data were processed

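RNA of 27 arrays (9 cultures with 3 technical arrays each) was amplified from 2.5 µg of total RNA and hybridised to single-colour Phalanx Human OneArrays, per the labels. The deposited values are linear spot intensity per probe and array, some below 0. Which scanner and software were used, and how background and scale were handled, is not given in the sources used here. 

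Intensities were floored at 1 (4.35% to 7.59% of an array), log2 transformed and quantile normalised over 27 arrays, and the 3 arrays of a culture were averaged. limma 3.58.1 in R 4.3.3 fitted group means over the 9 cultures, two-sided, with moderated variances, no replicate block and Benjamini-Hochberg adjustment over 30968 probes at 0.05. The groups share 1 spread per probe. Of these probes 17397 had 1 gene symbol and 13571 were unnamed here. Symbols were updated through RefSeq genes of GRCh38.p14 (14670 current, 2645 updated, 82 unmatched), and the brightest probe stood for a gene. No 2 arrays held identical values. "At least N-fold" raises values under the noise limit to it. Simulated data had 200 probes changed 4-fold, all brighter than the median probe, so recovery for dim probes was not measured. In the comparisons with untreated cells 77% were recovered for PBD150 plus LPS and 78.5% for LPS. False calls were 4 of 158 for PBD150 plus LPS and 11 of 168 for LPS. Between the treated groups, where nothing was changed, there were 0 calls. The simulation gave all groups the same spread per probe, so the wider spread of the treated cultures was not covered.

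The members, gene lists and motifs were chosen with earlier results of these data known. Any member could be named. Culture values were given for up to 20 members called against untreated cells and the 5 with the smallest p between PBD150 plus LPS and LPS, along with others shown beside them, and up to 4 genes by p of each further list, with CENPE always. Promoters are those of up to 6 members called in both comparisons. Alternatives changed the scaling, floor, filter on dim probes, block, technical arrays, groups fitted, probe rule and replicates.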

Additional observations from a re-analysis of the deposited data

How the results depend on the processing

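Of 209 counts and medians of the kinesin family under alternative processing, 189 stayed within 1.5 times (counts) or the spread between replicates (medians) and 20 moved further. Part of this tally was fixed in advance. Medians cannot move with the replicate block, with all 27 arrays in the fit, or when a replicate of the group not compared is left out. Counts for PBD150 plus LPS against LPS were 0 under every alternative. The tally is therefore no measure of stability for those values. The number of kinesins higher with PBD150 plus LPS than in untreated cells was 1 after median centring, 1 with the replicate block, 5 with all 27 arrays in the fit, and 1 to 4 when 1 replicate was left out. With LPS it was 6 without quantile normalisation and 1 with the replicate block, and 1 to 4 when 1 replicate was left out; the 1 arose without untreated replicate 3 in both comparisons. The lower counts ranged from 10 to 13 with PBD150 plus LPS and from 9 to 13 with LPS when 1 replicate was left out. The mitotic median with PBD150 plus LPS was -1.84 with a pseudocount of 16 and -1.88 without KIF14, and -2.34 to -1.97 when 1 replicate was left out. With LPS it was -1.73 without quantile normalisation, -1.74 with that pseudocount, -1.77 without KIF14, -1.76 with KIF14 at its bound against the noise limit (the settings for KIF14 were chosen after seeing the data), and -2.21 to -1.98 when 1 replicate was left out. The transport median with LPS was 0.54 without quantile normalisation, 0.063 after median centring and 0.15 to 0.26 when 1 replicate was left out. For PBD150 plus LPS against LPS the mitotic median was -0.38 without quantile normalisation and changed sign, to 0.014, without LPS replicate 1. The transport median of that comparison, 0.078, also changed sign, to -0.10 without quantile normalisation and -0.0019 without LPS replicate 1. KIF9, not called with LPS, reversed to -0.11 after median centring, and ranged from -0.13 to 0.36 when 1 replicate was left out. Of the 16 kinesins called with PBD150 plus LPS 10 held under all 17 alternatives, as did 9 of 15 with LPS, and the exceptions were KIF4A, KIF21B, KIF5B, KIF18A, KIFC2 and KIF22. Of 612 counts over partner lists 575 stayed within 1.5 times. These include the counts for PBD150 plus LPS against LPS, which were 0 whichever replicate was left out. The causes were not tested.

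Without quantile normalisation the median of all genes moved by 0.19 with PBD150 plus LPS and 0.34 with LPS, and after median centring by -0.13 with PBD150 plus LPS and -0.14 with LPS. Without quantile normalisation 2805 of all genes were higher and 2053 lower with PBD150 plus LPS, in place of 2326 and 2721, and 3312 were higher and 1435 lower with LPS, in place of 2061 and 2343. Deviations from the group mean correlated at 0.19 between LPS replicate 1 and PBD150 plus LPS replicate 3. Between LPS replicate 3 and PBD150 plus LPS replicate 1 the correlation was 0.18. Same-numbered replicates did not deviate together (correlations from -0.22 to 0.04, 0 of 9 pairs above 0.1), so the numbers were not taken to pair the samples. With them as a replicate block KIF22, KIF21B and KIFC2 lost their calls with PBD150 plus LPS (adjusted p = 0.0804, 0.0534 and 0.0881) and with LPS (0.0552, 0.0535 and 0.0556). The 9 cultures limit the precision, and 16 of 36 kinesins were not above noise on every array.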

Other observations

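Microtubules themselves are built from tubulins. Of 12 tubulin genes measured, 1 rose and 3 fell with PBD150 plus LPS, and 2 rose and 2 fell with LPS. With PBD150 plus LPS that is 8.33% higher and 25% lower, where 15.3% and 17.9% of all genes were called, and with LPS 16.7% each way, where 13.6% and 15.4% of all genes were called. TUBB3, a beta tubulin best known from neurons, rose by 1.83 ± 0.19 with PBD150 plus LPS (adjusted p = 0.000258) and by 1.71 ± 0.19 with LPS (adjusted p = 0.000425). TUBB2A rose by 1.53 ± 0.31 with LPS (adjusted p = 0.00882), and with PBD150 plus LPS its change was 0.82 ± 0.31 (adjusted p = 0.0899). TUBB4B, the widely expressed beta tubulin, stood at 5.94, 5.89 and 6.72 with PBD150 plus LPS, at 4.67, 6.71 and 6.36 with LPS, and at 8.76, 8.84 and 8.77 in untreated cells, and fell by 2.61 ± 0.49 with PBD150 plus LPS (adjusted p = 0.00525) and 2.88 ± 0.49 with LPS (adjusted p = 0.00368). TUBE1, a centriolar tubulin, fell by 3.80 ± 0.58 with PBD150 plus LPS (adjusted p = 0.00181) and 3.64 ± 0.58 with LPS (adjusted p = 0.00262). The third to fall with PBD150 plus LPS, named after its value was seen, was TUBD1 at -0.92 (adjusted p = 0.0457). Tubulin genes are close copies of each other, so what a probe detects is uncertain. Without LPS replicate 1 the LPS comparison had 4 tubulins lower in place of 2, and PBD150 plus LPS against untreated had 2 higher in place of 1, as it did without PBD150 plus LPS replicate 3.

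A pair of further kinesins stood in the probe table under older symbols. KIF20B, a motor of cytokinesis listed as MPHOSPH1, stood at 2.41, 3.69 and 3.87 with PBD150 plus LPS, at 4.42, 2.26 and 1.92 with LPS, and at 7.60, 7.56 and 7.66 in untreated cells. It had changes of -4.28 with PBD150 plus LPS and -4.74 with LPS, both past the threshold, and was above noise on 2 of 9 arrays with PBD150 plus LPS, 3 of 9 with LPS and 9 of 9 in untreated cells. KIF16B, an endosomal motor listed as C20orf23, had changes of 0.07 with PBD150 plus LPS and 0.34 with LPS that did not pass.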
